A study of Homo sapiens with 9 samples.

Results

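The comparison described here is between Ramos cells kept for 6 h and Ramos cells kept for 3 h in 3 µM CHIR99021. Its members are all genes of the deposited count table, read in the 3 libraries labelled 6 h (replicates 9, 10 and 11) and the 3 labelled 3 h (replicates 5, 6 and 7), which are 6 of the 9 libraries of the series. The other 3 are untreated (0 h, replicates 1, 2 and 3) and are given as a starting level. Of 60234 gene identifiers, 28412 had a read in any library and 15847 had enough reads to be tested. Ramos is an established human line from a Burkitt lymphoma without Epstein-Barr virus, a cancer of germinal centre B cells whose MYC gene is joined to an immunoglobulin locus. All cells came from this 1 line and were grown in RPMI with serum, antibiotics and glutamine. CHIR99021 is a small molecule that blocks the kinases GSK-3 alpha and GSK-3 beta, and the series asks about MYC stabilisation and extrinsic apoptosis. Because both groups were treated with the same dose, the comparison asks what changed while the drug stayed on. None of the libraries is from untreated cells at 3 h or 6 h, so time in the drug and time in the culture dish cannot be told apart.

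GSK-3 phosphorylates MYC, beta-catenin, sterol regulatory proteins, heat shock factor and many other substrates, often marking them for degradation. Cells answer a load of unfolded protein with heat shock factor 1 (HSF1), which switches on cytosolic chaperones through repeated GAA boxes called heat shock elements. Unfolded protein in the endoplasmic reticulum (ER) is answered instead by ATF6 and XBP1, which act on ER stress elements. ATF4 answers amino acid shortage and other stress by switching on amino acid synthesis, transport and tRNA charging. SREBP2 switches on cholesterol synthesis when sterols run low.

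Levels are read counts scaled to library size (CPM), listed in the order of replicates 5, 6 and 7 for 3 h and 9, 10 and 11 for 6 h. The 6 libraries held 46359911 to 52880876 reads in genes, at which a count of 0 allows 0.0587 to 0.0692 CPM (3 counts, counting error only). Differences are log2 fold changes of 6 h against 3 h with their standard error (SE) from edgeR's quasi-likelihood test, and 1 on this scale is a doubling. Replicates differed beyond counting noise, with a chi-square per degree of freedom of 2.74 to 8.76 at 3 h and 6.15 to 14 at 6 h. These values compare pairs with counting noise alone, so they cannot tell separate cultures from separate preparations of the same RNA. Replicate 6 at 3 h and replicate 10 at 6 h stood furthest from the others of their time. The share of reads from mitochondrial genes was 2.36% to 2.59% at 3 h and 2.05% to 2.40% at 6 h. B cell markers summed to 9525 to 10308 CPM at 3 h and 9774 to 10879.6 CPM at 6 h. None of the T and NK, myeloid, or epithelial and fibroblast markers had enough reads to be tested, and each of these lists summed to at most 0.32 CPM in any treated library. In bulk RNA, fewer cells that express a gene and less of its RNA per cell cannot be told apart.

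Between 3 h and 6 h, chaperone genes of the cytosol and the ER rose, together with subunits of the proteasome. Most listed genes of amino acid stress, cholesterol synthesis and the immediate early response fell. So did most listed regulators and receptors of germinal centre B cells, while markers of these cells went both ways. Across all genes, 6871 of 15847 (43.4%) passed at an adjusted p under 0.05, of which 3402 (21.5%) were higher and 3469 (21.9%) lower at 6 h. Of the 6871 genes, 1749 changed by less than 1.2-fold and 1744 by at least 1.5-fold. A difference of at least 2-fold was found in 3.84% of the tested genes, 264 that rose and 344 that fell. Without 3 h replicate 6 the number that passed was 5874, and without 6 h replicate 10 it was 6352. The libraries of the 2 times did not overlap for 8749 genes (55.2%). Over all tested genes the median log2 fold change was 0.005, against which the medians of the lists are read. The share that passed was 50.1% among the 11619 protein-coding genes (2739 higher and 3079 lower). It was 53.8% among genes of 10 to 100 CPM and 54.7% among those over 100 CPM. With so large a share of genes changed, a list in which 43.4% to 54.7% of members passed, evenly in both directions, looks like the background.

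**Figure D1:**
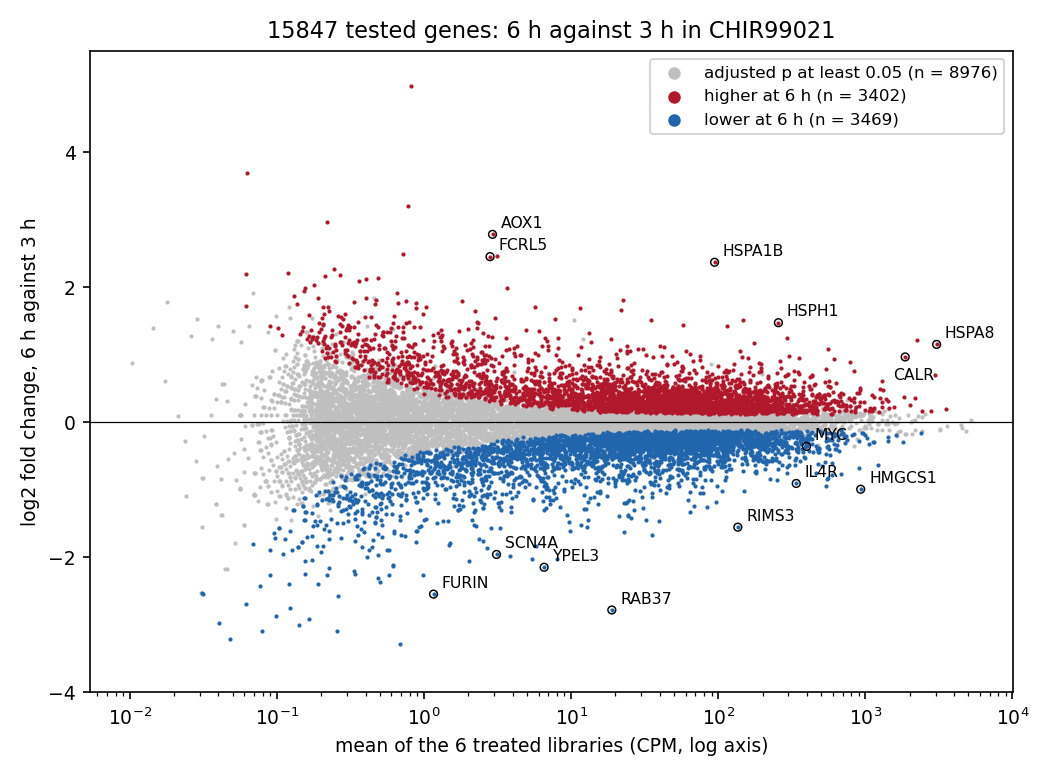
Each point is 1 of the 15847 tested genes. The x axis is its mean over the 6 treated libraries (CPM, log axis) and the y axis its log2 fold change of 6 h against 3 h. Red points were higher (3402), blue points lower (3469) and grey points did not pass an adjusted p of 0.05. HSPA8, among the most abundant genes, lies above 1, and RAB37 lies lowest among the labelled genes at -2.78.

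**Figure D2:**
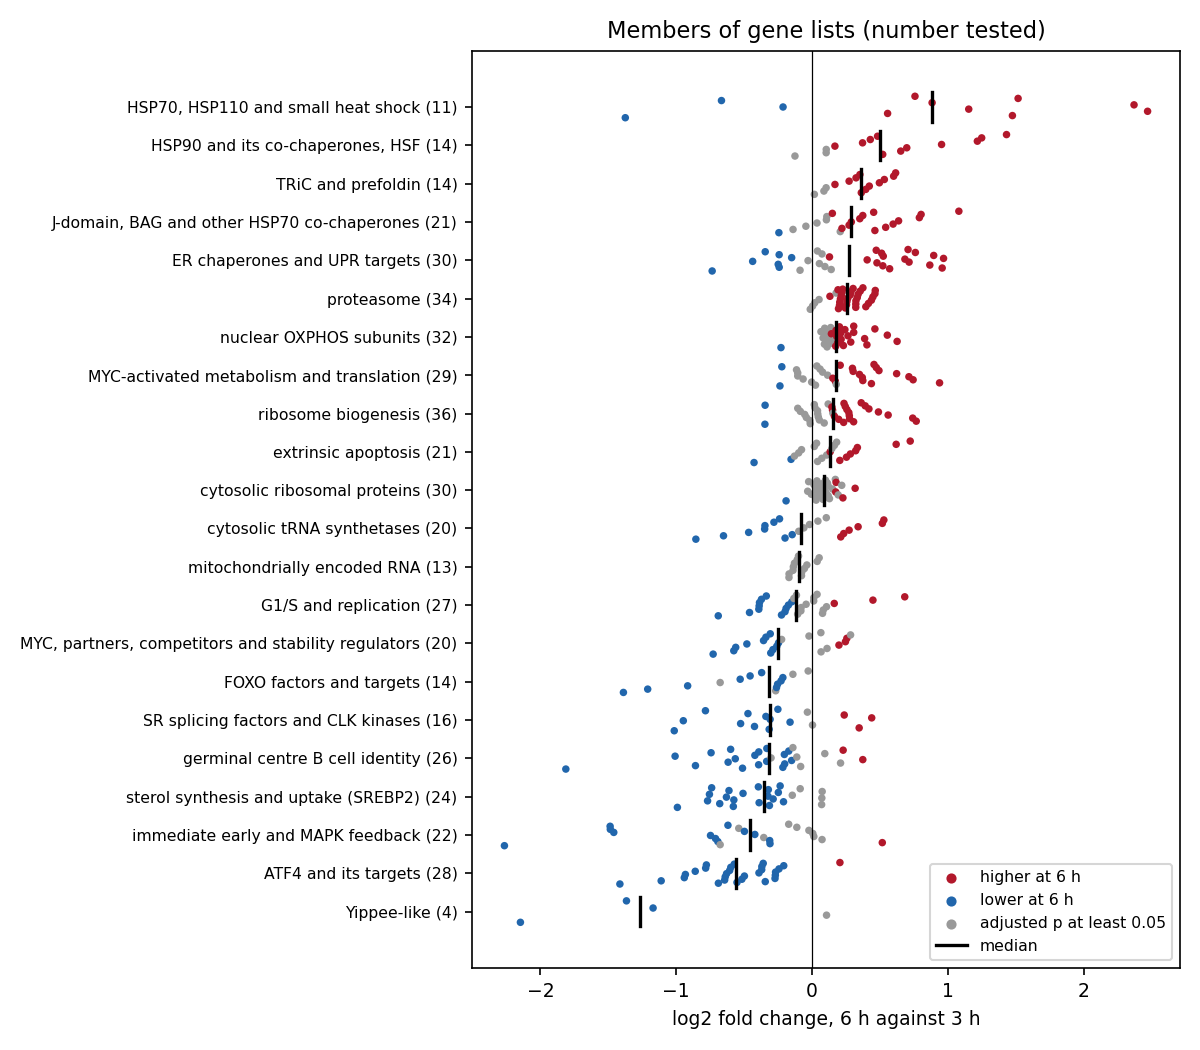
Each point is a tested gene of the list named at the left, with the number tested in brackets, placed by its log2 fold change of 6 h against 3 h (x axis). Black bars are list medians, which run from 0.88 for HSP70, HSP110 and small heat shock genes to -1.27 for the Yippee-like genes.

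Most cytosolic chaperones of the HSP70 system that passed the test rose. Of 11 tested genes of the HSP70, HSP110 and small heat shock list, 8 rose and 3 fell (median 0.88). HSPA8 (ENSG00000109971), the constitutive HSP70 that folds new proteins, was at 1872, 1921 and 1887 CPM at 3 h and 4228, 4036 and 4358 CPM at 6 h. The 3 libraries of 6 h lay far above those of 3 h, and both lay far above the mean of 289 ± 3.58 CPM at 0 h. Its log2 fold change was 1.15 ± 0.046 SE, adjusted p = 2.68e-09 by edgeR. HSPH1, an HSP110 that recharges HSP70 with nucleotide, was at 133, 139 and 136 CPM at 3 h and 382, 365 and 385 CPM at 6 h (log2 fold change 1.47 ± 0.046 SE, adjusted p = 2.46e-10 by edgeR). HSPA1B, the classical heat-inducible HSP70, was at 31.1, 29.2 and 31.5 CPM at 3 h and 165, 148 and 161 CPM at 6 h (log2 fold change 2.37 ± 0.065 SE, adjusted p = 6.99e-11 by edgeR), from 7.41 ± 0.671 CPM at 0 h. In each of these genes the lowest library of 6 h was above the highest of 3 h. HSPA1A and HSPA1B code for nearly the same protein and share reads, so the level of each alone is uncertain. HSPA1A was far lower, at 1.07, 0.724 and 1.1 CPM at 3 h and 5.98, 4.68 and 5.35 CPM at 6 h, with a log2 fold change of 2.47. HSPA4L, another HSP110, rose by 1.52, the small heat shock protein HSPB1 by 0.88 and HSPA4 by 0.76 on the log2 scale. The 3 members that fell were HSPB6 (-1.38), a small heat shock protein, HSPA13 (-0.67), a microsomal family member, and HSPA14 (-0.21), a ribosome-bound one. Also tested were 5 pseudogenes named after HSPA8, which were all higher, and they can hold reads of HSPA8 itself.

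HSP90 and the proteins that work with it rose as a group, 11 of 14 with none lower (1 lower with upper-quartile factors, with library size alone, with the 3 h and 6 h libraries alone or without 0 h replicate 3) and a median of 0.50. HSP90AA1, the inducible cytosolic HSP90, was at 1285, 1432 and 1330.3 CPM at 3 h and 3124, 2939 and 3337 CPM at 6 h (log2 fold change 1.22 ± 0.059 SE, adjusted p = 7.58e-09 by edgeR). AHSA1, the activator of the HSP90 ATPase, was at 169.8, 172 and 178 CPM at 3 h and 424, 389 and 421 CPM at 6 h (log2 fold change 1.25 ± 0.056 SE, adjusted p = 4.64e-09 by edgeR), and CHORDC1, an HSP90 co-chaperone, was at 62, 65 and 59.3 CPM at 3 h and 163, 169 and 171 CPM at 6 h (log2 fold change 1.43 ± 0.05 SE, adjusted p = 8.57e-10 by edgeR). All 3 separated the times without overlap. AHSA1 differed from HSPA8 in its earlier course: against 0 h the log2 fold change of AHSA1 was 0.31 at 3 h and 1.55 at 6 h, while that of HSPA8 was 2.71 at 3 h and 3.87 at 6 h. FKBP4, an immunophilin that binds HSP90, rose by 0.95, the constitutive HSP90AB1 by 0.70 and the co-chaperone PTGES3 by 0.52. HSF1 itself, whose protein is activated after translation, did not pass, at 191, 165 and 186 CPM at 3 h and 209, 189.8 and 183 CPM at 6 h (log2 fold change 0.10 ± 0.065 SE, adjusted p = 0.22 by edgeR). HSF2 (0.10) and FKBP5 (-0.13) did not pass either.

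**Figure D3:**
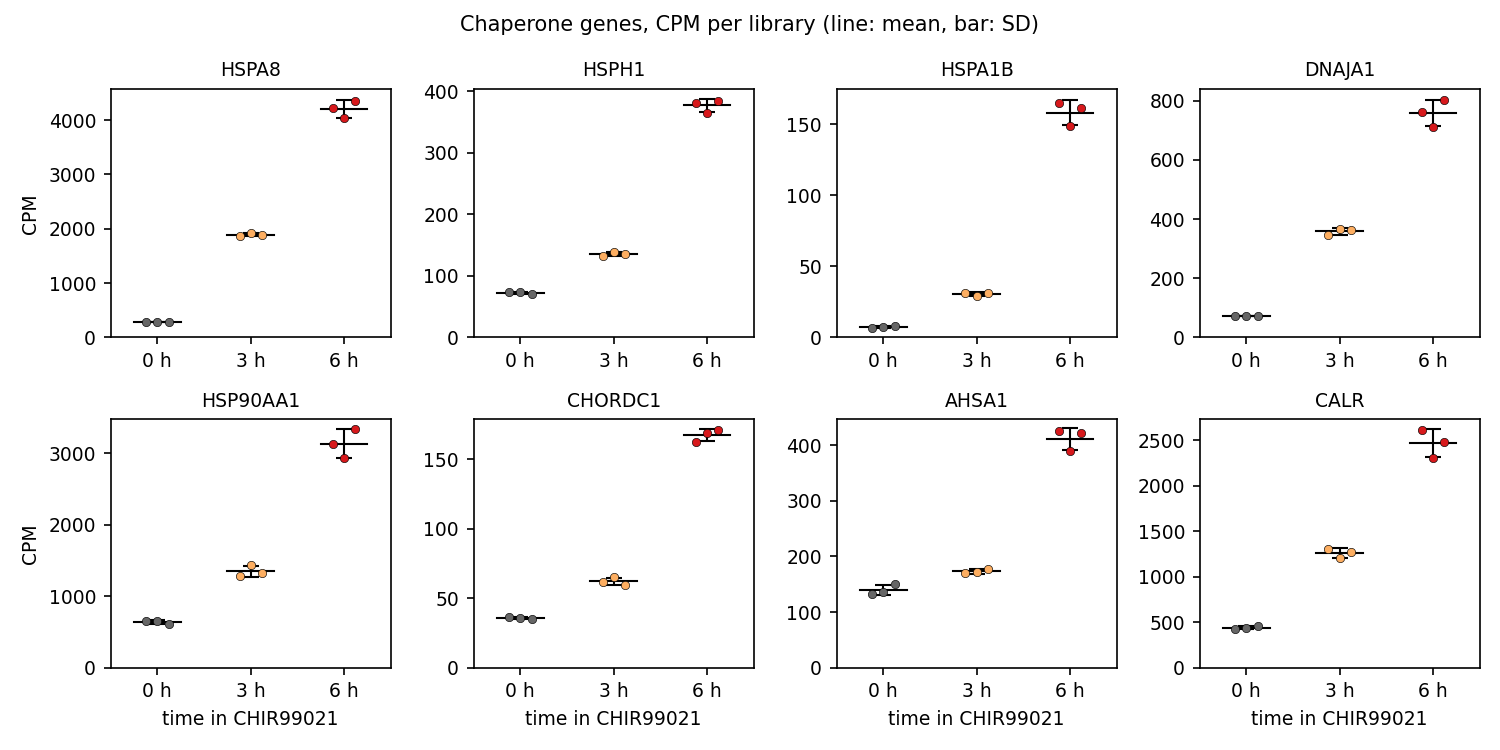
Each panel is a gene and each point a library, in CPM (y axis, from 0) by time in CHIR99021 (x axis). Horizontal lines are means and bars the SD of 3 libraries. In all 8 genes the 3 libraries of 6 h lie above the 3 of 3 h.

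Heat shock elements lie just upstream of several of these genes. The windows below are 100 bases of RefSeq promoters (GRCh38.p14), written 5′ to 3′ on the strand of the gene, and the capitals mark the heat shock element, GAA, TTC and GAA boxes with 2 free bases (N) between neighbours, or its reverse complement. They are shown because each holds the element and its gene rose. HSPA8 is read from the minus strand at chr11:123062137-123062236, CHORDC1 from the minus strand at chr11:90223050-90223149, HSP90AA1 from the minus strand at chr14:102087077-102087176, and DNAJB6 from the plus strand at chr7:157336829-157336928.
HSPA8: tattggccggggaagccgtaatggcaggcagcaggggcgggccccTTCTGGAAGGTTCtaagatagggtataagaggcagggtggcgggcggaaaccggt
CHORDC1: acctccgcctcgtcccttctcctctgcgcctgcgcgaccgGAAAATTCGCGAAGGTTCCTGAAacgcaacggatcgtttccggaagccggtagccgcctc
HSP90AA1: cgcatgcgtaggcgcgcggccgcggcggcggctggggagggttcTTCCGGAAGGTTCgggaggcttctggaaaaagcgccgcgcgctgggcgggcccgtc
DNAJB6: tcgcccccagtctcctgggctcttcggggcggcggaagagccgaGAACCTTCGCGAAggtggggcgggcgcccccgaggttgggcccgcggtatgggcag
CHORDC1 holds 3 overlapping matches in 1 run. HSPA8 holds another match at base -230 from the start, outside the window. The element was searched on both strands from 250 bases upstream to 50 bases downstream of each start, and 0.608% of 27305 genes with a promoter in the table hold it, as do 0.44% of the 10233 of them that were tested. It was found in 3 of 12 HSP90 list genes with a promoter (25%; HSP90AA1, HSP90AB1 and CHORDC1), 2 of 18 of the J-domain and BAG list (11.1%; DNAJA1 and DNAJB6) and 1 of 10 of the HSP70 list (10.0%; HSPA8). HSPD1 holds it among the mitochondrial chaperones. All 7 of these genes rose, whereas MGA and CD83, the other 2 list members with the element, fell. Rises were common in these lists whether or not the element was found: 11 of 14 genes of the HSP90 list, 14 of 21 of the J-domain and BAG list and 8 of 11 of the HSP70 list rose. The element was found in 45 tested genes, and the direction of those outside the lists is not given here. A link between the element and a rise was not tested. A match describes the letters and is not a measured binding site.

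Co-chaperones that feed HSP70 and the chambers that fold new proteins followed the same direction. Among J-domain, BAG and related proteins, 14 of 21 rose and 1 fell (median 0.29). DNAJA1, a J-domain partner of HSP70, was at 347, 368 and 362 CPM at 3 h and 761, 712 and 802 CPM at 6 h (log2 fold change 1.08 ± 0.051 SE, adjusted p = 6.74e-09 by edgeR), with no overlap between the times. DNAJB1 rose by 0.80, the HSP70-HSP90 bridge STIP1 by 0.79, BAG3 by 0.64 and DNAJB6 by 0.60, and BAG5 fell by 0.24. Of the 14 tested subunits of TRiC, the ring that folds actin and tubulin, and of prefoldin, which hands it substrates, 11 rose and none fell (median 0.36). CCT3 rose by 0.61, CCT4 by 0.60 and TCP1 by 0.53. Mitochondrial chaperones and proteases divided, with 7 of 13 higher, 2 lower and a median of 0.26. The chaperonin pair HSPE1 and HSPD1 rose by 0.77 and 0.61, and the protease LONP1 fell by 0.33 and the HSP70 cofactor GRPEL2 by 0.17.

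Proteasome genes rose by small and similar amounts. Of 34 tested, 29 were higher and none lower, with a median of 0.26 and a range of -0.01 to 0.46. PSMA3, a subunit of the core ring, was at 91, 96.1 and 98.9 CPM at 3 h and 134, 123 and 137 CPM at 6 h (log2 fold change 0.46 ± 0.058 SE, adjusted p = 2.90e-05 by edgeR). PSMD1, the large scaffold of the cap, was at 155, 158 and 152 CPM at 3 h and 217, 203 and 221 CPM at 6 h (log2 fold change 0.46 ± 0.053 SE, adjusted p = 1.45e-05 by edgeR). In both genes the times did not overlap. PSMC3, an ATPase of the cap, rose by 0.45. Only 6 of the 34 passed when a fold of at least 1.2 was asked for, since most rises were near that size.

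In the ER, the chaperones rose and several genes of degradation fell. Of 30 tested genes of the ER chaperone and unfolded protein response list, 16 rose and 7 fell (median 0.27). CALR, the calcium-binding chaperone calreticulin, was at 1305, 1206 and 1275 CPM at 3 h and 2615, 2306 and 2479 CPM at 6 h (log2 fold change 0.97 ± 0.055 SE, adjusted p = 3.10e-08 by edgeR). PDIA4, a disulphide isomerase, was at 554, 532 and 552 CPM at 3 h and 1053, 966 and 1026 CPM at 6 h (log2 fold change 0.89 ± 0.047 SE, adjusted p = 1.50e-08 by edgeR). FKBP11, a prolyl isomerase of secretory cells, was at 111, 109 and 107 CPM at 3 h and 218, 211 and 205 CPM at 6 h (log2 fold change 0.96 ± 0.055 SE, adjusted p = 3.29e-08 by edgeR). The libraries of the 2 times were apart in all 3 genes. CRELD2 rose by 0.87, SDF2L1 by 0.76, MANF by 0.71, PDIA3 by 0.71 and HSP90B1, the HSP90 of the ER, by 0.48. HSPA5, the HSP70 of the ER also called BiP, was high and did not pass, at 2183, 2227 and 2207 CPM at 3 h and 2425, 2214 and 2422 CPM at 6 h (log2 fold change 0.09 ± 0.047 SE, adjusted p = 0.127 by edgeR). Without 6 h replicate 10 it passed. HSPA5 was already raised at 3 h, from 325 ± 2.07 CPM at 0 h (log2 fold change 2.76 at 3 h against 0 h). The genes that fell were the J-domain proteins DNAJB9 (-0.74) and DNAJC3 (-0.24), and HERPUD1 (-0.44), EDEM1 (-0.35), SEL1L (-0.25), DERL3 (-0.24) and DERL2 (-0.15), which serve the removal of misfolded proteins from the ER. The count of 7 lower was 4 without 3 h replicate 6 and 4 without 6 h replicate 11.

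The ER stress element, CCAAT and CCACG with 9 free bases between them, was searched on both strands and found in 8 of 26 promoters of this list (30.8%), against 0.0916% of the 27305 genes and 0.147% of the 10233 tested genes with a promoter. Of these 8 genes, 7 rose (HSP90B1, CANX, CALR, PDIA6, CRELD2, ERO1B and XBP1) and HSPA5, already raised at 3 h, did not pass. In the whole list 16 of 30 genes rose and 7 fell. The element was found in 15 tested genes, and the direction of those outside this list is not given here. A link between the element and a rise was not tested. The windows of CALR (plus strand, chr19:12938359-12938458), HSP90B1 (plus strand, chr12:103930280-103930379) and HSPA5 (minus strand, chr9:125241351-125241450) show that the gene that did not pass carries the same letters as those that rose. Capitals mark the element on either strand.
CALR: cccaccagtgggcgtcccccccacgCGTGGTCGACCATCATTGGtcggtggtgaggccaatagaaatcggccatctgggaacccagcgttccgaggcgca
HSP90B1: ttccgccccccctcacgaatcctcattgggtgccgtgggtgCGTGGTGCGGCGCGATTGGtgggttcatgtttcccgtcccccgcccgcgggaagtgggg
HSPA5: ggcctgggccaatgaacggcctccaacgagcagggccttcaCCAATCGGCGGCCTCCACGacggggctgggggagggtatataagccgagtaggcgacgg
In the windows of CALR and HSP90B1 the letters lie on the opposite strand, and no binding was measured. HSP90B1 holds another match on its own strand, at base -194 from the start and outside the window.

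ATF4 and its known targets fell almost without exception. Of 28 tested genes, 27 were lower and 1 higher (median -0.56). ATF4 (ENSG00000128272) itself was at 1469, 1479 and 1494 CPM at 3 h and 992, 922 and 957 CPM at 6 h (log2 fold change -0.63 ± 0.046 SE, adjusted p = 2.54e-07 by edgeR). CTH, which makes cysteine from cystathionine, was at 37.5, 36.3 and 37.4 CPM at 3 h and 12.5, 14.6 and 14.6 CPM at 6 h (log2 fold change -1.42 ± 0.062 SE, adjusted p = 3.55e-09 by edgeR). CHAC1, which degrades glutathione, was at 50.1, 44.9 and 49.6 CPM at 3 h and 23.4, 22 and 21.5 CPM at 6 h (log2 fold change -1.11 ± 0.068 SE, adjusted p = 5.59e-08 by edgeR). No library of 6 h reached a library of 3 h in these 3 genes, and both CTH and CHAC1 had been higher still at 0 h, at 66.9 ± 1.2 CPM and 73.6 ± 5.94 CPM. ATF4, in contrast, was highest at 3 h, from 1048 ± 33.9 CPM at 0 h. Against 0 h its log2 fold change was 0.50 at 3 h and -0.13 at 6 h, and the list median was -0.23 at 3 h and -0.78 at 6 h. PCK2, the mitochondrial carboxykinase, fell by 0.94, and GPT2, which makes alanine, from 323 ± 10.8 CPM to 178 ± 6.22 CPM (SD, n = 3). The phosphatase subunit PPP1R15A fell by 0.93, the cystine carrier SLC7A11 by 0.78, the pseudokinase TRIB3 by 0.69 and SESN2, a brake on mTORC1, by 0.57. Falls were smaller for asparagine synthetase ASNS (-0.27), the serine pathway genes PHGDH (-0.24) and PSAT1 (-0.39) and the glutamine carrier SLC1A5 (-0.21). PSPH, the last enzyme of serine synthesis, was the 1 gene that rose (0.20), a call lost without 3 h replicate 6 or 6 h replicate 11.

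Cytosolic aminoacyl-tRNA synthetases, which charge tRNAs and of which several are known ATF4 targets, went in both directions. Of 20 tested, 6 rose and 9 fell (median -0.08). CARS1, for cysteine, was at 142, 141 and 146 CPM at 3 h and 82.9, 75 and 78.9 CPM at 6 h (log2 fold change -0.86 ± 0.049 SE, adjusted p = 3.10e-08 by edgeR). WARS1, for tryptophan, fell by 0.65 and GARS1, for glycine, by 0.47. At the other end VARS1, for valine, was at 210.5, 193 and 208 CPM at 3 h and 308, 286 and 282 CPM at 6 h (log2 fold change 0.52 ± 0.051 SE, adjusted p = 3.95e-06 by edgeR), and FARSA, a subunit of the phenylalanine enzyme, rose by 0.53. Neither CARS1 nor VARS1 had overlapping times. The ATF4 composite element TGATGNAA, searched on both strands, was found in 7 of the 16 synthetase genes with a promoter in the table (43.8%) and in 7 of 24 genes of the ATF4 list (29.2%), against 4.46% of the 27305 genes and 2.81% of the 10233 tested ones. Of the 7 synthetases with the element, 6 fell (CARS1, GARS1, TARS1, AARS1, IARS1 and MARS1) and NARS1 did not pass (-0.10), and the median of the 7 was -0.28. Of the 9 without it, 5 rose, 2 fell (WARS1 and SARS1) and 2 did not pass (median 0.21). All 7 ATF4 list genes with the element fell (ATF3, CHAC1, ASNS, CEBPG, SLC3A2, SLC1A5 and SLC7A1). In that list every tested gene but PSPH fell, with or without the element. The difference between synthetases with and without the element was seen and not tested.

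The element is shown for ASNS (minus strand, chr7:97872423-97872522), CHAC1 (plus strand, chr15:40953221-40953320) and the alanine synthetase gene AARS1 (minus strand, chr16:70289640-70289739), because it is the feature by which the synthetases are divided above. Capitals mark TGATGNAA or its reverse complement.
ASNS: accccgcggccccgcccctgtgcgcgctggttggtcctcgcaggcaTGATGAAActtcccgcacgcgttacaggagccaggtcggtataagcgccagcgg
CHAC1: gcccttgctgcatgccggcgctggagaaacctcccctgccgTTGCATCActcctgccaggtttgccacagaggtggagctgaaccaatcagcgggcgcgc
AARS1: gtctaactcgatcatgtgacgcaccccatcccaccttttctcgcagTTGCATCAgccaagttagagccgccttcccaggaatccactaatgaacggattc
In CHAC1 and AARS1 the letters lie on the opposite strand.

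**Figure D4:**
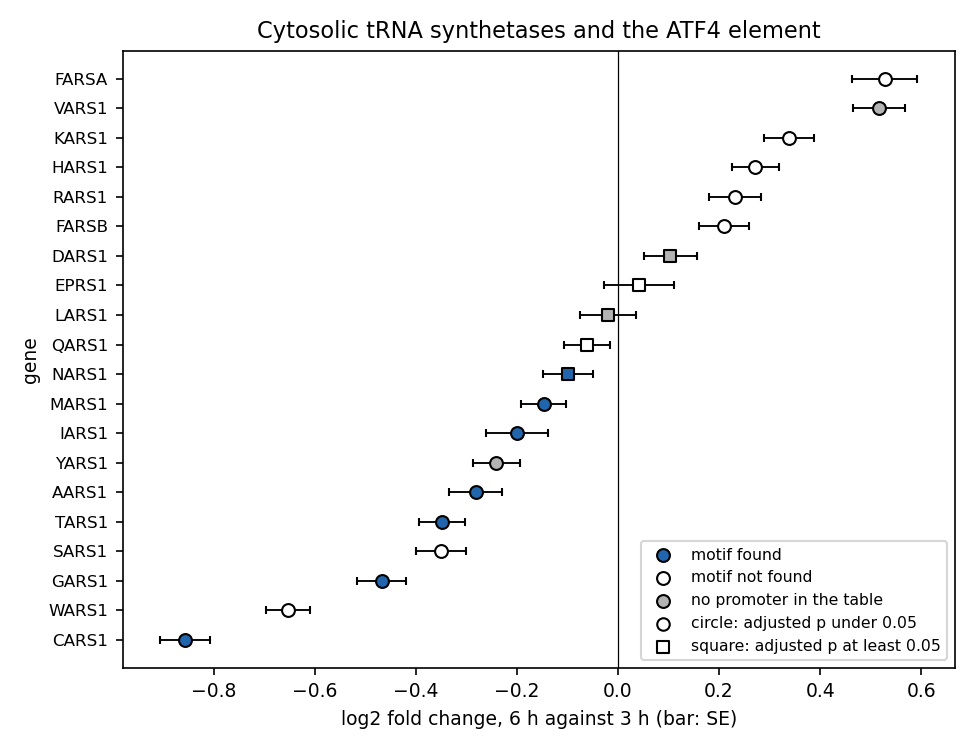
Points are the log2 fold changes of 6 h against 3 h (x axis) of the 20 cytosolic tRNA synthetase genes (y axis), and bars their SE. Blue points hold the ATF4 composite element, white points do not and grey points have no promoter in the table. Squares did not pass an adjusted p of 0.05. The 7 blue points lie at or below -0.10, and the 5 rising white points run from 0.21 to 0.53.

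Genes of cholesterol synthesis and uptake fell from a raised level. Of 24 tested, 19 fell and none rose (median -0.36). HMGCS1, which makes the precursor of mevalonate, was at 1192, 1282 and 1237 CPM at 3 h and 623, 599 and 644 CPM at 6 h (log2 fold change -0.99 ± 0.057 SE, adjusted p = 3.14e-08 by edgeR), from 392 ± 27.3 CPM at 0 h. SQLE, the squalene epoxidase, was at 568, 585 and 575 CPM at 3 h and 349, 326 and 348 CPM at 6 h (log2 fold change -0.76 ± 0.047 SE, adjusted p = 5.59e-08 by edgeR), and INSIG1, which holds SREBP in the ER, was at 857, 845 and 880.1 CPM at 3 h and 519, 488 and 508 CPM at 6 h (log2 fold change -0.77 ± 0.044 SE, adjusted p = 3.14e-08 by edgeR). In all 3 genes the libraries of 6 h lay between those of 0 h and those of 3 h. The sterol demethylase CYP51A1 fell by 0.74 and the regulator SREBF2 by 0.29. Another 5 genes did not pass, among them FDPS (0.07) and EBP (0.07). Of 9 fatty acid synthesis genes 4 fell and none rose: ACSS2, which makes acetyl-CoA from acetate (from 36.4 ± 1.09 CPM to 18.2 ± 0.795 CPM; SD, n = 3), SREBF1 (-0.46), ELOVL5 (-0.26) and FADS1 (-0.23). FASN (-0.08) and SCD (-0.12) did not pass, and the count that rose was 3 without 0 h replicate 3 or with GC and length trends removed. Among 6 targets of the sterol sensor LXR, ABCG1, a sterol exporter, fell (-0.43), MYLIP (0.28) and LPCAT3 (0.20) rose, and ABCA1 was at -0.42 and did not pass; without 6 h replicate 10 it passed at -0.55. The sterol regulatory element TCACNCCAC was found in 1 of 18 promoters of the sterol list (SREBF2), against 1.39% of the 27305 genes and 1.47% of the 10233 tested ones.

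**Figure D5:**
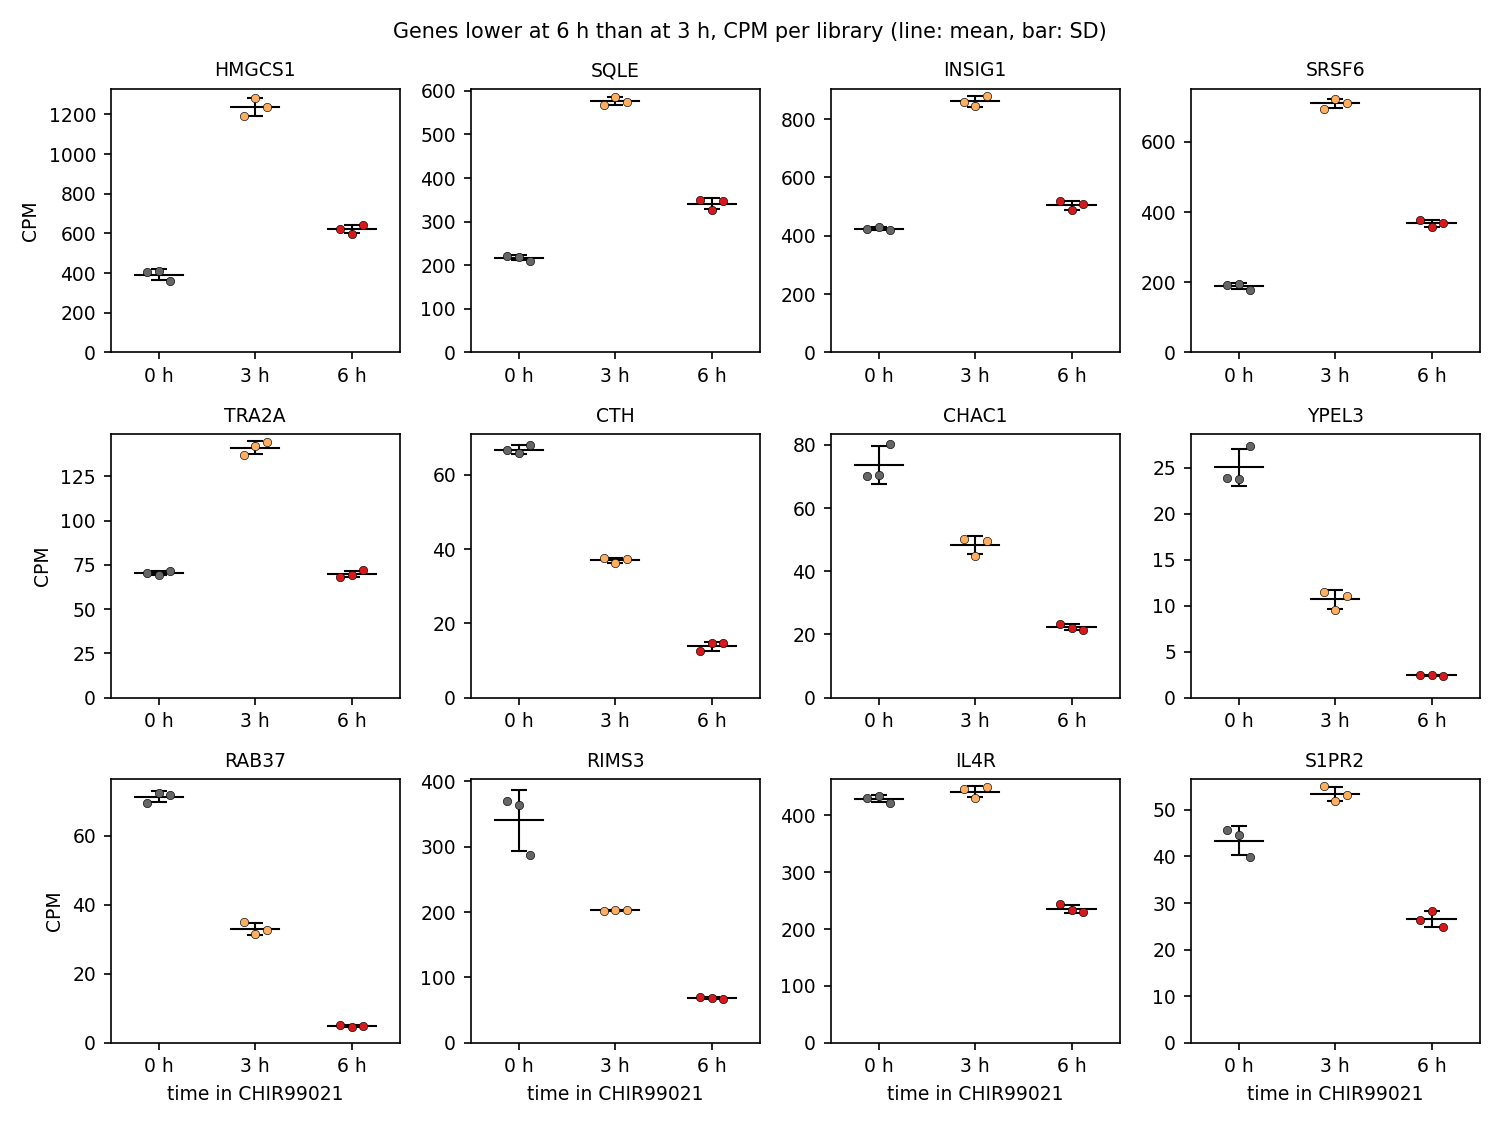
Each panel is a gene that was lower at 6 h than at 3 h and each point a library, in CPM (y axis, from 0) by time in CHIR99021 (x axis), with means and SD bars of 3 libraries. HMGCS1, SQLE, INSIG1, SRSF6 and TRA2A are highest at 3 h. CTH, CHAC1, YPEL3, RAB37 and RIMS3 step down at each time, and IL4R has about the same level at 0 h and 3 h.

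MYC mRNA was slightly lower at 6 h, while many genes that MYC is known to activate were higher. MYC (ENSG00000136997) was at 464, 422 and 454 CPM at 3 h and 362, 339 and 345 CPM at 6 h (log2 fold change -0.36 ± 0.052 SE, adjusted p = 1.03e-04 by edgeR), and the times did not overlap. The fall did not pass when a fold of at least 1.2 was asked for, and MYC protein was not measured. Among MYC and the proteins that pair with it, compete with it or set its stability, 11 of 20 fell and 3 rose (median -0.25). MAX, the obligate partner, did not pass at 99.4, 93.1 and 96.7 CPM at 3 h and 104, 101 and 107 CPM at 6 h (log2 fold change 0.11 ± 0.047 SE, adjusted p = 0.0771 by edgeR). Competitors for MAX were lower, with MNT at -0.56, MXD1 at -0.58, MXD3 at -0.48, MXI1 at -0.34 and MGA at -0.73 on the log2 scale. FBXW7, which recognises phosphorylated MYC for degradation, fell by 0.30, and the deubiquitinase USP36 by 0.31. The members that rose were CIP2A (0.26), SKP2 (0.24) and MLX (0.20).

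Ribosome biogenesis genes continued upwards in part. Of 36 tested, 19 rose and 2 fell (median 0.15). MYBBP1A, a nucleolar transcription cofactor, was at 125, 117 and 120.2 CPM at 3 h and 210.4, 199 and 195 CPM at 6 h (log2 fold change 0.74 ± 0.051 SE, adjusted p = 1.40e-07 by edgeR), and NAT10, an RNA acetyltransferase, rose by 0.39, UTP20 by 0.77 and RRP9 by 0.49. NOP56, a box C/D snoRNP protein, went the other way, at 618, 624 and 630.0 CPM at 3 h and 499, 479.5 and 493 CPM at 6 h (log2 fold change -0.35 ± 0.042 SE, adjusted p = 2.24e-05 by edgeR), as did its partner NOP58 (-0.35). Neither MYBBP1A nor NOP56 had overlapping times. Against 0 h, NOP56 was at 1.62 at 3 h and 1.27 at 6 h on the log2 scale, and MYBBP1A at 1.45 and 2.19. Metabolic and translation genes under MYC control rose in 16 of 29 cases and fell in 2 (median 0.18). TFRC, the transferrin receptor, was at 421, 436 and 408 CPM at 3 h and 803, 787 and 833 CPM at 6 h (log2 fold change 0.94 ± 0.067 SE, adjusted p = 1.99e-07 by edgeR). Its 6 h libraries were all well above its 3 h libraries. CAD, of pyrimidine synthesis, rose by 0.74, the spermidine synthase SRM by 0.71, APEX1 by 0.62 and LDHA by 0.49, and HNRNPA1 (-0.24) and HK2 (-0.22) fell. The count of 2 that fell was 5 with library size alone, with the 3 h and 6 h libraries alone or without 0 h replicate 3. Of 10 genes known to be repressed by MYC 7 fell and 1 rose (median -0.28): BTG2 was at -0.72, BTG1 at -0.48, KLF6 at -0.40 and CDKN1B, an inhibitor of cyclin-dependent kinases, at -0.32, and GADD45A rose (0.41). CDKN1A did not pass, at 10.1, 9.81 and 9.49 CPM at 3 h and 11.7, 10.6 and 10.1 CPM at 6 h (log2 fold change 0.14 ± 0.077 SE, adjusted p = 0.168 by edgeR). It was already raised at 3 h, from a mean of 1.0 CPM at 0 h (log2 fold change 3.29 at 3 h against 0 h).

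The mRNAs of the kinases that the drug blocks moved by small amounts, and targets of beta-catenin went both ways. GSK3A was at 61.4, 54.7 and 60.4 CPM at 3 h and 80.3, 75 and 72.5 CPM at 6 h (log2 fold change 0.37 ± 0.061 SE, adjusted p = 2.82e-04 by edgeR) and GSK3B at 43.2, 42.5 and 41.3 CPM at 3 h and 33.9, 33.2 and 33.9 CPM at 6 h (log2 fold change -0.33 ± 0.071 SE, adjusted p = 0.00209 by edgeR), so the mRNAs of the 2 forms of the kinase moved in opposite directions with no overlap between times. CTNNB1, which codes for beta-catenin, did not pass at 222, 229 and 221 CPM at 3 h and 211, 201 and 215 CPM at 6 h (log2 fold change -0.10 ± 0.053 SE, adjusted p = 0.151 by edgeR), and it passed as lower with library size alone, with the 3 h and 6 h libraries alone and without 0 h replicate 3. Of the 12 tested genes of GSK-3 and the destruction complex, 3 rose and 4 fell (median -0.14); APC (-0.61) and CSNK1A1 (-0.23) were lower and the glycogen synthase GYS1 (0.22) higher. None of the 12 passed when a fold of at least 1.2 was asked for, and the lower count was 7 with library size alone, with the 3 h and 6 h libraries alone or without 0 h replicate 3. Of 13 TCF/LEF factors and Wnt feedback targets, 4 rose and 3 fell (median -0.01). AXIN2, a feedback inhibitor and a standard reporter of the pathway, was at 3.65, 4.11 and 4.21 CPM at 3 h and 6.64, 6.3 and 6.92 CPM at 6 h (log2 fold change 0.73 ± 0.099 SE, adjusted p = 5.41e-05 by edgeR), from 1.99 ± 0.247 CPM at 0 h. The 3 libraries of 6 h lay above those of 3 h. NKD1 (0.78), TCF7 (0.55) and RNF43 (0.20) rose, and TCF7L2 (-0.56), SGK1 (-0.53) and LEF1 (-0.18) fell. The count of 4 higher was 2 without 3 h replicate 7.

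Among genes of extrinsic apoptosis, in which death receptors activate caspase-8, 8 of 21 rose and 2 fell (median 0.13). The decoy receptor TNFRSF10D was at 20, 19.9 and 19.7 CPM at 3 h and 34.1, 32.1 and 32.1 CPM at 6 h (log2 fold change 0.72 ± 0.055 SE, adjusted p = 3.33e-07 by edgeR) and TNFRSF1A, a TNF receptor, at 9.01, 8.69 and 8.41 CPM at 3 h and 14.7, 12.1 and 13.2 CPM at 6 h (log2 fold change 0.62 ± 0.074 SE, adjusted p = 1.90e-05 by edgeR). Both were higher in each 6 h library than in any 3 h library. CFLAR, which holds back caspase-8, rose by 0.32 and FAS by 0.33. The rise of CFLAR, from a mean of 29.7 CPM to 37.1 CPM, left it below its 0 h mean of 46.2 CPM. Of the TRAIL receptors that signal death, TNFRSF10A was at 72, 74.2 and 72.4 CPM at 3 h and 79.2, 78 and 82.4 CPM at 6 h (log2 fold change 0.13 ± 0.049 SE, adjusted p = 0.0414 by edgeR) and TNFRSF10B, which did not pass, at 40.5, 38.9 and 38.3 CPM at 3 h and 41.5, 41.1 and 38.4 CPM at 6 h (log2 fold change 0.04 ± 0.055 SE, adjusted p = 0.592 by edgeR). CASP8 rose by 0.20 (SE 0.06), and this call was lost without 3 h replicate 5 or 6 h replicate 11. The rise of TNFRSF10A was lost in 10 of 19 alternatives, among them library size alone. RIPK1, a kinase of the receptor complex, fell by 0.43 and XIAP, a caspase inhibitor, by 0.16. The count of 8 higher was 4 without 3 h replicate 5 and 5 without 6 h replicate 11, and the count of 2 lower was 1 without 3 h replicate 5 or 6 or 6 h replicate 9 or 10.

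In the BCL2 family, 8 of 18 rose and 7 fell (median 0.00). Of the BH3-only genes, which trigger the mitochondrial pathway, BMF (-1.12), BIK (-0.59), HRK (-0.53), PMAIP1 (-0.41) and BCL2L11 (-0.14) fell and BBC3 (-0.63) did not pass but did so in 5 of 19 alternatives, while BAD (0.28) and BID (0.18) rose. BBC3 had mostly dropped before 3 h, with means of 14.5 CPM at 0 h, 0.904 CPM at 3 h and 0.576 CPM at 6 h. BCL2L11 stayed above its 0 h level, with means of 36.2 CPM at 0 h, 69.0 CPM at 3 h and 62.7 CPM at 6 h. BMF was at 19.3, 18.6 and 17.4 CPM at 3 h and 8.25, 8.62 and 8.63 CPM at 6 h (log2 fold change -1.12 ± 0.074 SE, adjusted p = 1.06e-07 by edgeR), with no overlap. Of the pore formers, BAK1 (0.45) and BAX (0.20) rose, and so did CYCS, cytochrome c (0.40), and APAF1 (0.24). MCL1, a survival protein, was at 449, 447 and 449 CPM at 3 h and 363, 358 and 366 CPM at 6 h (log2 fold change -0.31 ± 0.049 SE, adjusted p = 2.03e-04 by edgeR), whereas BCL2L2 (0.53) and BCL2L1 (0.14) rose. MCL1 was highest at 3 h, and its 6 h mean of 362 CPM was not below its 0 h mean of 338 CPM. The small fall of BCL2L11 was lost in 8 of 19 alternatives, and the count of 8 higher was 5 without 3 h replicate 6 or 7 and 4 without 6 h replicate 9. Of 20 p53 targets, 11 fell and 2 rose (median -0.25). TP53INP1 was at 17.5, 18.9 and 17.4 CPM at 3 h and 7.04, 7.42 and 7.64 CPM at 6 h (log2 fold change -1.28 ± 0.088 SE, adjusted p = 1.29e-07 by edgeR). The ubiquitin ligase MDM2 fell by 0.76 and the repair gene DDB2 by 0.84. MDM2 was highest at 3 h, with means of 248 CPM at 0 h, 368 CPM at 3 h and 217 CPM at 6 h. The 2 genes that rose, BAX and FAS, are named above. Of these rises 1 was lost with library size alone and without any 1 of 3 h replicates 5, 6 and 7 or 6 h replicates 9 and 11.

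Regulators and receptors of the germinal centre B cell programme fell in 18 of 26 cases and rose in 2 (median -0.32). Of 12 markers of Burkitt or germinal centre B cells, in contrast, 3 rose and 4 fell (median 0.01): MME (CD10; 0.59), MS4A1 (CD20; 0.38) and CD79A (0.25) were higher and CD38 (-0.57), BCL6, CD79B (-0.19) and CD22 (-0.16) lower. The higher count was 2 without 3 h replicate 6 or without 6 h replicate 9. CXCR5, the receptor that guides B cells to follicles, was at 2.68, 1.88 and 2.37 CPM at 3 h and 0.659, 0.766 and 0.531 CPM at 6 h (log2 fold change -1.81 ± 0.18 SE, adjusted p = 3.98e-06 by edgeR). S1PR2, which confines cells to the germinal centre, was at 55, 51.9 and 53.2 CPM at 3 h and 26.4, 28.3 and 24.9 CPM at 6 h (log2 fold change -1.01 ± 0.064 SE, adjusted p = 7.24e-08 by edgeR). POU2F2, the factor OCT2, was at 119, 109.6 and 114 CPM at 3 h and 65.3, 64.5 and 59.2 CPM at 6 h (log2 fold change -0.86 ± 0.053 SE, adjusted p = 5.59e-08 by edgeR). In these 3 genes the highest library of 6 h was below the lowest of 3 h. MEF2B fell by 0.74, BCL7A by 0.62, LMO2 by 0.60, SPIB by 0.57 and RGS13 by 0.51. BCL6, the master repressor of the germinal centre, fell from 326 ± 8.78 CPM to 281 ± 10.4 CPM (SD, n = 3; log2 fold change -0.22 ± 0.048 SE, adjusted p = 0.00244 by edgeR), which did not pass when a fold of at least 1.2 was asked for. PAX5 (-0.08) did not pass, and EBF1 (0.37) and TCF3 (0.23) rose.

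Of 18 signalling genes of the B cell receptor, 10 fell and 4 rose (median -0.16). PRKCB, the kinase that links the receptor to NF-kappaB, was at 5.73, 6.25 and 5.37 CPM at 3 h and 2.98, 3.17 and 3.02 CPM at 6 h (log2 fold change -0.92 ± 0.097 SE, adjusted p = 6.35e-06 by edgeR). The inhibitory phosphatases INPP5D (-0.57) and PTPN6 (-0.53) fell too, while the kinases SYK (0.42) and BTK (0.28), the exchange factor VAV1 (0.33) and the receptor chain CD79A (0.25) rose. Of 14 genes of MHC class II, which presents antigen, 7 fell and 1 rose (median -0.17). HLA-DOB fell by 0.87, HLA-DQB1 by 0.50 and HLA-DOA by 0.48, and CIITA, the master activator of the class, rose by 0.41. The rise of CIITA, from a mean of 24.4 CPM to 32.6 CPM, left it below its 0 h mean of 53.3 CPM. The count of 7 was 4 without 3 h replicate 7, and HLA genes are so variable that the reads aligned to a reference can differ from the true level. Among NF-kappaB genes 5 of 18 fell and 3 rose (median -0.09): RELB was at -0.65 and the inhibitor NFKBIA at -0.32, against 0.38 for NFKBIE and 0.21 for NFKB1. The lower count was 2 without 3 h replicate 7, without 6 h replicate 10 or without 6 h replicate 11.

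Immediate early genes, which signalling switches on at once, fell together with FOXO genes. Of 22 immediate early and MAPK feedback genes 12 fell and 1 rose (median -0.46). DUSP5, a phosphatase of ERK, was at 1.12, 0.881 and 0.898 CPM at 3 h and 0.234, 0.175 and 0.185 CPM at 6 h (log2 fold change -2.26 ± 0.26 SE, adjusted p = 1.17e-05 by edgeR). IER2 was at 67.8, 64.5 and 69.5 CPM at 3 h and 43.2, 39.2 and 40.8 CPM at 6 h (log2 fold change -0.71 ± 0.057 SE, adjusted p = 5.39e-07 by edgeR), and EGR1 (-1.49), NR4A3 (-1.49), FOSL2 (-1.46) and SRF (-0.62) also fell. DUSP5 was low throughout and highest at 3 h, with means of 0.0772 CPM at 0 h, 0.965 CPM at 3 h and 0.198 CPM at 6 h. The count of 12 lower was 9, with a median of -0.33, under a filter of 1 CPM in 3 libraries. JUN was the 1 member that rose (0.52), a call lost with DESeq2 and without 3 h replicate 6, 3 h replicate 7 or 6 h replicate 9. Of 14 FOXO factors and targets 10 fell and none rose (median -0.32). FOXO3 was at 20.5, 22.8 and 20.8 CPM at 3 h and 8.81, 10 and 8.9 CPM at 6 h (log2 fold change -1.21 ± 0.1 SE, adjusted p = 1.04e-06 by edgeR), KLHL24 fell by 1.39 and IRS2, an insulin receptor substrate, by 0.92. No library of 6 h reached 3 h in DUSP5, IER2 or FOXO3. Of 11 clock genes 5 fell and 1 rose, with PER2 and the nuclear receptor NR1D2 both at -0.69 and DBP at 0.35.

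Splicing factors of the SR family had been high at 3 h and were lower at 6 h. Of 16 SR and CLK kinase genes, 11 fell and 3 rose (median -0.31). SRSF6 was at 695, 722 and 711 CPM at 3 h and 376, 358 and 369 CPM at 6 h (log2 fold change -0.95 ± 0.048 SE, adjusted p = 1.16e-08 by edgeR), from 188 ± 8.65 CPM at 0 h. TRA2A, which codes for a splicing regulator of the same family, was at 137, 142 and 144 CPM at 3 h and 68.3, 69.3 and 72 CPM at 6 h (log2 fold change -1.01 ± 0.047 SE, adjusted p = 5.87e-09 by edgeR), and its 6 h libraries lay at the level of 0 h, 70.4 ± 1.06 CPM. TRA2B fell by 0.79 and SRSF7 by 0.53, whereas SRSF1 (0.44), CLK3 (0.35) and SRSF9 (0.24) rose. The Yippee-like genes, a family of small zinc-binding proteins, had the lowest median of any list at -1.27, with 3 of 4 lower. YPEL3 was at 11.5, 9.55 and 11 CPM at 3 h and 2.47, 2.43 and 2.33 CPM at 6 h (log2 fold change -2.15 ± 0.1 SE, adjusted p = 6.36e-09 by edgeR), YPEL5 at 35, 34.4 and 35.6 CPM at 3 h and 13.6, 12.7 and 14.4 CPM at 6 h (log2 fold change -1.37 ± 0.058 SE, adjusted p = 2.99e-09 by edgeR) and YPEL1 at 9.18, 8.14 and 9.54 CPM at 3 h and 4.17, 4.05 and 3.69 CPM at 6 h (log2 fold change -1.17 ± 0.089 SE, adjusted p = 3.30e-07 by edgeR). These 3 separated the times, and YPEL2 did not pass (0.11).

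Cell cycle genes shifted by small amounts. Of 27 genes of G1/S and replication, 12 fell and 3 rose (median -0.12). CCND3, the D-type cyclin of germinal centre cells, was at 268, 240.5 and 262 CPM at 3 h and 167, 152 and 159 CPM at 6 h (log2 fold change -0.69 ± 0.057 SE, adjusted p = 7.78e-07 by edgeR). Its partner kinases went the other way: CDK4 was at 138, 133 and 136 CPM at 3 h and 189, 177 and 188 CPM at 6 h (log2 fold change 0.45 ± 0.049 SE, adjusted p = 8.45e-06 by edgeR) and CDK6 at 166, 176 and 156 CPM at 3 h and 247, 299 and 252 CPM at 6 h (log2 fold change 0.68 ± 0.15 SE, adjusted p = 0.00702 by edgeR). CDK6 had been at 229 ± 50.5 CPM at 0 h, and its 6 h libraries overlapped those of 0 h. SLBP, which binds histone mRNA, fell by 0.46, GINS2 by 0.39 and E2F1 by 0.39. Of 26 genes of G2 and mitosis 10 fell and 3 rose (median -0.07), from BUB1B (0.44) to CENPF (-0.67); the higher count was 6 without 0 h replicate 3 or with the 3 h and 6 h libraries alone, and 7 with GC and length trends removed. Of 13 tested replication histone genes, H2BC12 rose (0.27), a call lost in 8 of 19 alternatives, and H2AC6 fell (-0.96). The count of 1 lower was 5 without 0 h replicate 3 or with the 3 h and 6 h libraries alone, 4 with GC and length trends removed and 2 without 0 h replicate 2.

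Among genes of energy metabolism more rose than fell. Of 29 glycolysis and hypoxia genes, 13 rose and 9 fell (median 0.13). The enzymes LDHA (0.49), TPI1 (0.47), GPI (0.43) and ENO1 (0.37) rose, and BNIP3L, a receptor for the removal of mitochondria, was at 34.6, 37.4 and 37.3 CPM at 3 h and 17, 15 and 17 CPM at 6 h (log2 fold change -1.16 ± 0.07 SE, adjusted p = 4.87e-08 by edgeR). PFKFB4 (-1.13), PDK1 (-0.44) and VEGFA (-0.39) also fell. Nuclear genes of oxidative phosphorylation rose in 19 of 32 cases with 1 lower and a median of 0.18. ATP5MC1, a subunit of the ATP synthase ring, was at 133, 120.5 and 132 CPM at 3 h and 207, 188 and 201 CPM at 6 h (log2 fold change 0.63 ± 0.063 SE, adjusted p = 4.22e-06 by edgeR), and NDUFS3 rose by 0.55. None of the 13 mitochondrially encoded RNAs passed (edgeR; 3 were lower at an unadjusted p under 0.05, and DESeq2 and limma-voom called 0), and their median was -0.10. As lower, 6 of them passed with GC and length trends removed (median -0.20), 4 with no filter, 3 without 6 h replicate 11, 2 with library size alone or with the 3 h and 6 h libraries alone and 1 without 0 h replicate 3, and the median was -0.02 without 6 h replicate 10. Of 30 cytosolic ribosomal protein genes 4 rose and 1 fell (median 0.09). RPL27 was at 0.32 and RPL3 at -0.19, and the count of 4 ran from 1 (without 3 h replicate 6 or 6 h replicate 9) to 9 (without 0 h replicate 3).

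Outside the lists, the largest rises among genes with a mean of at least 1 CPM were in genes that started low. AOX1, an aldehyde oxidase, was at 0.515, 0.979 and 0.715 CPM at 3 h and 5.17, 5.21 and 4.96 CPM at 6 h (log2 fold change 2.78 ± 0.16 SE, adjusted p = 4.20e-08 by edgeR). FCRL5, an Fc receptor-like protein of B cells, was at 0.836, 0.959 and 0.796 CPM at 3 h and 3.55, 6.19 and 4.5 CPM at 6 h (log2 fold change 2.45 ± 0.2 SE, adjusted p = 8.12e-07 by edgeR), and SCML4, a polycomb-related gene, at 1.35, 1.33 and 1.78 CPM at 3 h and 5.64, 6.35 and 5.72 CPM at 6 h (log2 fold change 1.99 ± 0.13 SE, adjusted p = 6.49e-08 by edgeR). In each the libraries of 6 h were several times those of 3 h. MAST4, a kinase, was at 10.7, 10.1 and 9.09 CPM at 3 h and 33.8, 38.8 and 32.4 CPM at 6 h (log2 fold change 1.82 ± 0.11 SE, adjusted p = 1.62e-07 by edgeR), and CAMK4, the calcium/calmodulin-dependent kinase IV, at 74.8, 79 and 74.8 CPM at 3 h and 203, 242 and 206 CPM at 6 h (log2 fold change 1.51 ± 0.11 SE, adjusted p = 1.10e-06 by edgeR). For FCRL5, SCML4, MAST4, MOXD1 and CAMK4 the 0 h means of 0.976, 1.26, 11.7, 2.53 and 79.9 CPM were near the 3 h means of 0.864, 1.49, 9.95, 2.68 and 76.2 CPM. LRRK2, a kinase known from Parkinson disease, was at 0.879, 0.861 and 0.694 CPM at 3 h and 2.6, 2.5 and 3.37 CPM at 6 h, and FOXD4 and MOXD1 rose by 1.71 and 1.70. TRDC, the constant segment of the T cell receptor delta chain, rose to 17.5 ± 0.607 CPM from 5.4 ± 0.328 CPM (SD, n = 3) while the T and NK cell markers summed to at most 0.11 CPM at 6 h. The copies CHORDC1P1, CHORDC1P4 and CHORDC1P5 (1.65, 1.66 and 1.54) and HSP90AA2P (1.17) can hold reads of their parent genes and are uncertain. ZNF75D, a zinc finger gene, rose by 1.53 from a level at 3 h of 3.97 ± 0.394 CPM that was below its 0 h level of 8.46 CPM.

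The largest fall among these genes was in RAB37, a small GTPase of secretory granules, at 34.9, 31.5 and 32.8 CPM at 3 h and 5.15, 4.47 and 4.82 CPM at 6 h (log2 fold change -2.78 ± 0.068 SE, adjusted p = 2.75e-11 by edgeR). FURIN, a protease that matures secreted proteins, was at 2.06, 1.92 and 1.98 CPM at 3 h and 0.34, 0.306 and 0.369 CPM at 6 h (log2 fold change -2.54 ± 0.17 SE, adjusted p = 8.87e-08 by edgeR), and PIEZO2, a mechanically gated channel, at 12.5, 12.9 and 13.4 CPM at 3 h and 2.62, 3.61 and 3.32 CPM at 6 h (log2 fold change -2.03 ± 0.12 SE, adjusted p = 6.16e-08 by edgeR). All 3 genes fell more than 4-fold, with no overlap between the times. CLIP2, COL9A3, SFXN3, SCN4A, NPAS1 and PPM1M fell by 1.83 to 2.05 on the log2 scale, and all 6 had been lower at 3 h than at 0 h. CXCR5 and LAMP3 (-1.78) fell from a 3 h level close to that of 0 h, as did PLPP1, a lipid phosphatase, from 3.64 ± 0.17 CPM to 1.11 ± 0.176 CPM (SD, n = 3; 3.33 CPM at 0 h). Among genes over 100 CPM, RIMS3 was at 202, 203 and 202 CPM at 3 h and 70.3, 68.9 and 67.8 CPM at 6 h (log2 fold change -1.55 ± 0.08 SE, adjusted p = 2.56e-08 by edgeR), KANK2 at 202, 198 and 197 CPM at 3 h and 99.8, 98 and 96.9 CPM at 6 h (log2 fold change -1.02 ± 0.052 SE, adjusted p = 1.20e-08 by edgeR) and IL4R, the receptor for interleukin-4, at 446, 430.5 and 449 CPM at 3 h and 244, 233 and 230.5 CPM at 6 h (log2 fold change -0.91 ± 0.045 SE, adjusted p = 9.53e-09 by edgeR). Each of these separated the times without overlap. IL4R was at 429 ± 6.43 CPM at 0 h, a level it still had at 3 h.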

How the data were processed

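RNA was sequenced from Ramos cells at 0 h, 3 h and 6 h in 3 µM CHIR99021, with 3 libraries per time. The deposited table holds whole-number counts of reads for each Ensembl gene. The submitters' processing notes name GSNAP 2015-12-31 for alignment, build hg19, HTSeq 0.6.0 for counting, and limma 3.30.0. Antisense and overlapping genes are uncertain, since strand setting, counting mode and annotation release are not given in the sources used here. The 5 HTSeq summary rows were left out. Reads without a feature made up 15.0% to 17.6% of each treated library.

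Counts were analysed with edgeR 4.0.16 in R 4.3.3. The filterByExpr filter (minimum count 10, minimum total 15) was used and libraries scaled by TMM factors (0.922 to 0.966 in the treated libraries). Robust quasi-likelihood fits used all 9 libraries and 1 mean per time (6 residual degrees of freedom, biological coefficient of variation 6.53%), and the 6 h minus 3 h contrast was tested two-sided. Benjamini-Hochberg adjustment ran over all 15847 genes, with a threshold of 0.05. The series calls the libraries biological triplicates. Contrasts against 0 h use the same treated libraries, so only their values are set side by side.

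The 44 gene lists, 4 of them cell type markers, were chosen with earlier results of these data known, and 16 of their 889 entries had no match. Lists are described by counts and medians, with no set test, and share some genes. Genes were named by rule: the 14 of each direction with the largest change among those over 1 CPM, the 8 among those over 100 CPM, up to 4 per list with the smallest p, and a fixed set of MYC, GSK-3, apoptosis and stress genes. Some genes that the rule named are left out of the text, and other list members in it were named after their values were seen. Symbols were matched by identifier for 51997 of 60234 entries. Promoters came from RefSeq (GRCh38.p14) by symbol, 10233 of the tested genes having one; gene coordinates on hg19 are not used here. GC content and length came from GENCODE v29 by identifier. Alternatives were other scalings, DESeq2 1.42.0, limma-voom (limma 3.58.1), other filters, the 3 h and 6 h libraries alone, a minimum fold of 1.2, each library left out, and, chosen after seeing the data, removal of GC and length trends. Figures were drawn with matplotlib 3.10.9.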

Additional observations from a re-analysis of the deposited data

How the results depend on the processing

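The number of genes that changed, 6871, was 6501 with DESeq2, 6782 with limma-voom, 6863 with DESeq2 size factors and 6903 with upper-quartile factors. It was 7615 with the 3 h and 6 h libraries alone and 7989 after trends with GC and length were taken out, which was decided after seeing the data. Leaving out each library in turn gave 5739 (without 3 h replicate 7) to 8103 (without 0 h replicate 3). With library size alone 2984 genes were higher and 3963 lower, so that 43.0% of the changed genes were higher against 49.5% with TMM, and the median of all genes was -0.028. A minimum fold of 1.2 left 2504 changed genes, 1136 higher and 1368 lower. A filter of 1 CPM in 3 libraries left 123 genes that rose by at least 2-fold and 219 that fell as far, because genes under 1 CPM were then not tested. Of 207 named genes, 159 kept their direction and side of the threshold in all 19 alternatives and none reversed. List medians changed sign only for the TCF/LEF and Wnt, NRF2 and B cell marker lists, which lay near 0, and the BCL2 family median of 0.00 ran from -0.03 to 0.15. No paired analysis was possible because the replicate numbers are not shared between the groups. Depth limits low genes: 17.4% of genes under 1 CPM passed, against 54.7% of those over 100 CPM.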

Other observations

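More processed pseudogenes and antisense genes were higher than lower at 6 h. Of 1399 tested processed pseudogenes 217 rose and 73 fell (median 0.10), and of 1004 antisense genes 154 rose and 77 fell (median 0.09). Protein-coding genes gave 2739 higher and 3079 lower of 11619 (median -0.02). Genes whose symbols begin with ZNF, most of them zinc finger repressors, gave 123 of 381 lower and 51 higher (median -0.12). Pseudogenes can hold reads of their parents and antisense genes those of the opposite strand, and the part of either in these counts was not tested.

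Genes of lysosomes and autophagy, antioxidant defence and the interferon response moved little as lists. Of 29 lysosome and autophagy genes 9 fell and 3 rose (median -0.12), and the lower count was 17 with GC and length trends removed and the higher count 1 without 3 h replicate 6 or without 6 h replicate 9. MAP1LC3B, which coats autophagosomes, was at 57.2, 54.8 and 58.7 CPM at 3 h and 38.1, 34.5 and 37 CPM at 6 h (log2 fold change -0.64 ± 0.055 SE, adjusted p = 1.05e-06 by edgeR). Of 18 NRF2 targets 4 rose and 5 fell, with the peroxiredoxin PRDX1 at 0.52 and the factor itself, NFE2L2, at -0.44, and the lower count was 3 without 3 h replicate 5 or 7 or 6 h replicate 10 or 11. Of 16 interferon genes 4 rose and 2 fell, OAS1 (0.75) and OAS2 (0.54) being higher and STAT2 (-0.65) and MX1 (-0.56) lower.

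Some of the steepest changes were in genes under 1 CPM, named here after their values were seen. ADAMTSL2, a matrix protein, was at 0.0858, 0.0587 and 0 CPM at 3 h and 1.62, 1.73 and 1.41 CPM at 6 h (log2 fold change 4.98 ± 0.37 SE, adjusted p = 3.07e-07 by edgeR), and ANK3, a membrane scaffold, at 0.129, 0.196 and 0.123 CPM at 3 h and 1.23, 1.44 and 1.55 CPM at 6 h (log2 fold change 3.21 ± 0.28 SE, adjusted p = 1.34e-06 by edgeR). EGR4, an early growth response factor, was at 1.33, 1.02 and 1.37 CPM at 3 h and 0.106, 0.109 and 0.161 CPM at 6 h (log2 fold change -3.28 ± 0.27 SE, adjusted p = 6.94e-07 by edgeR). In ADAMTSL2 and ANK3 every 6 h library was above every 3 h library, and in EGR4 below.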
